A study of Mus musculus with 12 samples.

Results

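Ribosome biogenesis and RNA polymerase I genes were followed across RNA-seq libraries of ZHBTc4 mouse embryonic stem cells, wild type (WT) or knockout (KO) for Phf6, a chromatin-binding protein. The 38 genes are a list picked by name for their roles, with earlier results of these data known, out of 53379 genes in the deposited tables. All 38 were found, and all 38 were among the 17884 genes that passed the filter on low counts. The series holds 12 libraries in 6 groups of 2: WT and KO cells that were untreated, given doxycycline for 2 days, or treated over 4 days with all-trans-retinoic acid while leukemia inhibitory factor was withheld. All groups share the 129/Ola strain background and the ZHBTc4 alteration, in which the only Oct4 (Pou5f1) comes from a transgene that doxycycline shuts off. The labels give doxycycline at 0.5 µg/ml and the protocol text at 0.5 mg/ml, and the protocol text gives retinoic acid at 10 mM. The labels do not state how the knockout was made, how many clones each genotype stands for, or whether the paired libraries of a group came from separate cultures. The p-values therefore reflect the scatter of these libraries alone, which may be technical. That scatter was unequal. Between the 2 libraries of a group, chi-square per degree of freedom was 4.99 in WT and 6.46 in KO with doxycycline. In the other groups it was 1.92 to 2.79. All groups share a single estimate of the spread per gene in the fit, so p-values that involve doxycycline groups may be too small.

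A ribosome begins in the nucleolus, where RNA polymerase I transcribes one long precursor of the 18S, 5.8S and 28S ribosomal RNAs. Small nucleolar ribonucleoproteins (snoRNPs) modify that precursor, and a large set of assembly factors folds it, cleaves it and builds it into the small and large subunits. Embryonic stem cells grow and divide quickly and are known for large nucleoli, and Myc is known as an activator of many genes of this pathway.

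The labels were checked first. Phf6 was 42.8 and 40.2 CPM (counts scaled to the library total) in untreated WT and 4.49 and 6.50 CPM in untreated KO, and it stayed at or below 8.19 CPM in every KO library. Pou5f1 fell from 1031 and 1013 CPM in untreated WT to 34.1 and 46.3 CPM with doxycycline, and was 973 and 1081 CPM with retinoic acid. In KO it fell from 1196 and 1193 CPM to 13.03 and 14.28 CPM with doxycycline, further than in WT (difference of the log2 changes -1.80 ± 0.16, edgeR adjusted p = 9.9e-06). Total counts were 15799569 to 21442034 per library, every member had at least 417 counts in every library, and 3 counts were worth 0.13 to 0.20 CPM. None of the 12 pluripotency markers was at 0 in any group; their summed level was 8254 to 8461 TPM (length-corrected transcript level, scaled to the library) in untreated WT. Retinoic acid libraries were extracted with an added RNeasy kit step, so the agent, the longer time, the missing factor and the extraction cannot be told apart. These libraries were also registered apart from the others and have no untreated group of their own. They held 24062 to 25053 genes with a read, against 21714 to 22556 in the other libraries. A difference between sets of libraries cannot be told apart from the treatment. In bulk RNA, fewer cells of a type and less RNA per cell cannot be told apart either.

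Promoter sequences are shown for 3 members, because they hold the letters CACGTG, the E-box that Myc and its partner Max are known to bind, ahead of the start site, and because members fell together in the treated cells. RefSeq's promoter table (GRCm38.p6) matched 32 of the 38 members with 41 promoters of 300 bases, from 250 bases before the start to 50 after it. Each stretch runs from 250 bases before the start to 25 after it, with motif matches in capitals on either strand: CACGTG, the ETS motif CCGGAAG, the NRF1 motif and the YY1 motif AAGATGGC. Rrn3 lies at chr16:13780449-13780723, Nop2 at chr6:125131633-125131907 and Imp4 at chr1:34439579-34439853, all on the plus strand.
Rrn3: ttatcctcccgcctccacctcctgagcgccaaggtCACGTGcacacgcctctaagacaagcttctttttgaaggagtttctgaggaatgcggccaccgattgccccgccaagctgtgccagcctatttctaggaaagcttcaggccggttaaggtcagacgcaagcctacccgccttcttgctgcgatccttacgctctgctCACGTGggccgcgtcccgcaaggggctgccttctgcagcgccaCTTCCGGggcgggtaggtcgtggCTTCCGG
Nop2: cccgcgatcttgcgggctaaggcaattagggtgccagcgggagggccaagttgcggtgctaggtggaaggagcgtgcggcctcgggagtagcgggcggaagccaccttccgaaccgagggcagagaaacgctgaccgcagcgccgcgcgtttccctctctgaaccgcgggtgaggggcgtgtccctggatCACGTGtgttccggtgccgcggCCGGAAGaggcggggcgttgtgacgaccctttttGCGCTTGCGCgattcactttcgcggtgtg
Imp4: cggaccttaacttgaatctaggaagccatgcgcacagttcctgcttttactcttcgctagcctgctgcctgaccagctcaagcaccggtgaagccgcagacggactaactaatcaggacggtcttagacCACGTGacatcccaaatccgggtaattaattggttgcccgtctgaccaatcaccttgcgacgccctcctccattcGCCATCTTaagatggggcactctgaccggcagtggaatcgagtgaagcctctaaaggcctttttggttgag
Rrn3 held CACGTG at 2 positions, from base -215 and from base -48, and CCGGAAG at 2 positions, 1 of which spans the start. Nop2 held CACGTG from base -60, CCGGAAG from base -38 and the NRF1 motif from base -4, and Imp4 held CACGTG from base -121 and AAGATGGC from base -46. Over the 32 members, CACGTG was found in 6 (18.8%) against 8.09% of 27025 genes with a promoter of the same length; the others were Mybbp1a, Pes1 and Wdr43, with the match after the start. CCGGAAG was found in 8 members (25%) against 9.93% of all genes, and the NRF1 motif in 5 (15.6%) against 5.19%. AAGATGGC was found in 1 member (3.12%) against 3.19%, and the ZBTB33 motif in 0 against 0.525%. The 27025 genes were not limited to those expressed here or matched to the members' levels. A match says only that these letters are in the window. Bop1, Fbl, Npm1, Rrp12, Rrs1 and Tcof1 had no entry.

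The members covered a wide range of levels. In untreated WT, compared per length as TPM, Npm1 (nucleophosmin, a histone and ribosomal protein chaperone of the nucleolus) stood highest at 3139 and 3148 TPM, and Ncl (nucleolin, an RNA-binding protein of the nucleolus) came next at 1645 and 1652. Nop58, Nop56 and Fbl, the protein core of box C/D snoRNPs, followed with mean levels of 776, 546 and 541 TPM, of which Nop56 and Fbl overlapped. Noc3l (26.2 and 25.6 TPM) and Rrp12 (41.6 and 38.2 TPM) stood lowest. The median member was at 117 TPM, and in the order of levels 18 of 37 neighbouring pairs had libraries that overlapped. Npm1 and Ncl stayed at the top of the order in all 6 groups.

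Treatment lowered nearly the whole set. With doxycycline 36 of the 38 members were called lower in WT at an adjusted p under 0.05 (edgeR quasi-likelihood test with Benjamini-Hochberg adjustment over all genes tested, used for every adjusted p here), and 37 in KO. None was called higher with either treatment in either line, in edgeR, in DESeq2 or in the other fits tried, and none was higher at an unadjusted p under 0.05. Over all genes 63.0% were called in either direction in WT and 62.3% in KO; 31.3% and 31.2% were called lower. The shares over all genes, here and below, cover the 17884 genes tested and were not matched to the members' levels. Every member had at least 417 counts in every library, so members could be called more readily than genes with few counts. With retinoic acid all 38 members were called lower in both lines, against backgrounds over all genes of 73.9% in either direction and 32.9% lower for WT and of 75.5% and 34.6% for KO. The libraries of the 2 groups did not overlap for 36 members with doxycycline in WT (79.1% of all genes) and 38 in KO (78.7%), and for 38 with retinoic acid in each line (87.0% and 88.0%). Both treatments are set against the same 2 untreated libraries of a line, while WT and KO share no library. Lower in all 4 of these comparisons were 36 members, against 15.6% of all genes.

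The median log2 change of the members with doxycycline was -0.55 in WT and -0.59 in KO, where the median of all genes tested was at or near 0. With retinoic acid it was -1.40 in WT and -1.59 in KO, and all genes tested had medians of 0.12 and 0.10. The size of the retinoic acid values depends on scaling: with plain library totals all genes moved to 0.46 and 0.43 and the members to -1.06 and -1.26, and in deposited TPM to 0.61 and 0.59 and to -0.91 and -1.12. The members stood 1.52 below all genes in WT in all 3, and 1.69 to 1.71 below in KO. A library's scaling factor shifts all its genes alike. This gap is therefore fixed between TMM and plain totals, and its constancy is no check on the result. The share of all calls that were higher went from 55.5% to 73.1% in WT and from 54.2% to 69.4% in KO with plain totals.

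Together the 38 genes took 1.40% and 1.43% of all counts in untreated WT, 0.949% and 0.912% with doxycycline and 0.659% and 0.637% with retinoic acid. In KO these shares were 1.22% and 1.21%, then 0.800% and 0.838%, then 0.494% and 0.493%. The KO libraries lay below the WT libraries in each condition, and the untreated libraries of a line above both treatments. The 18 proliferation genes (Mki67, Mcm genes, mitotic kinases and others) mostly fell too: 17 were called lower with doxycycline in each line, with medians of -0.42 in WT and -0.52 in KO, and 15 with retinoic acid in each line, with medians of -0.93 and -1.09. Their summed level was 4026 to 4167 TPM in untreated WT, 3253 to 3308 with doxycycline and 3058 to 3146 with retinoic acid, and in KO 3941 to 3961, 2873 to 2901 and 2804 to 2826. Called higher were 1 with doxycycline in WT (Mki67, from 353 and 344 CPM to 503 and 416 CPM) and 1 with retinoic acid in KO. None was at 0, and their part in the members' result was not tested. Cell identity markers moved as well. All 12 pluripotency genes were called lower with doxycycline in each line, with medians of -4.21 in WT and -4.76 in KO. With retinoic acid 11 of these were called lower in WT and 12 in KO, with medians of -1.46 and -3.34. None was called higher. Of 11 trophectoderm genes tested, 10 rose with doxycycline in each line. With retinoic acid 9 of them rose and 1 fell in WT, and 8 rose and 2 fell in KO. All 10 primitive endoderm genes rose with retinoic acid in each line, and with doxycycline 6 rose and 2 fell in each line. The part of these markers in the members' result was not tested either.

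**Figure D1:**
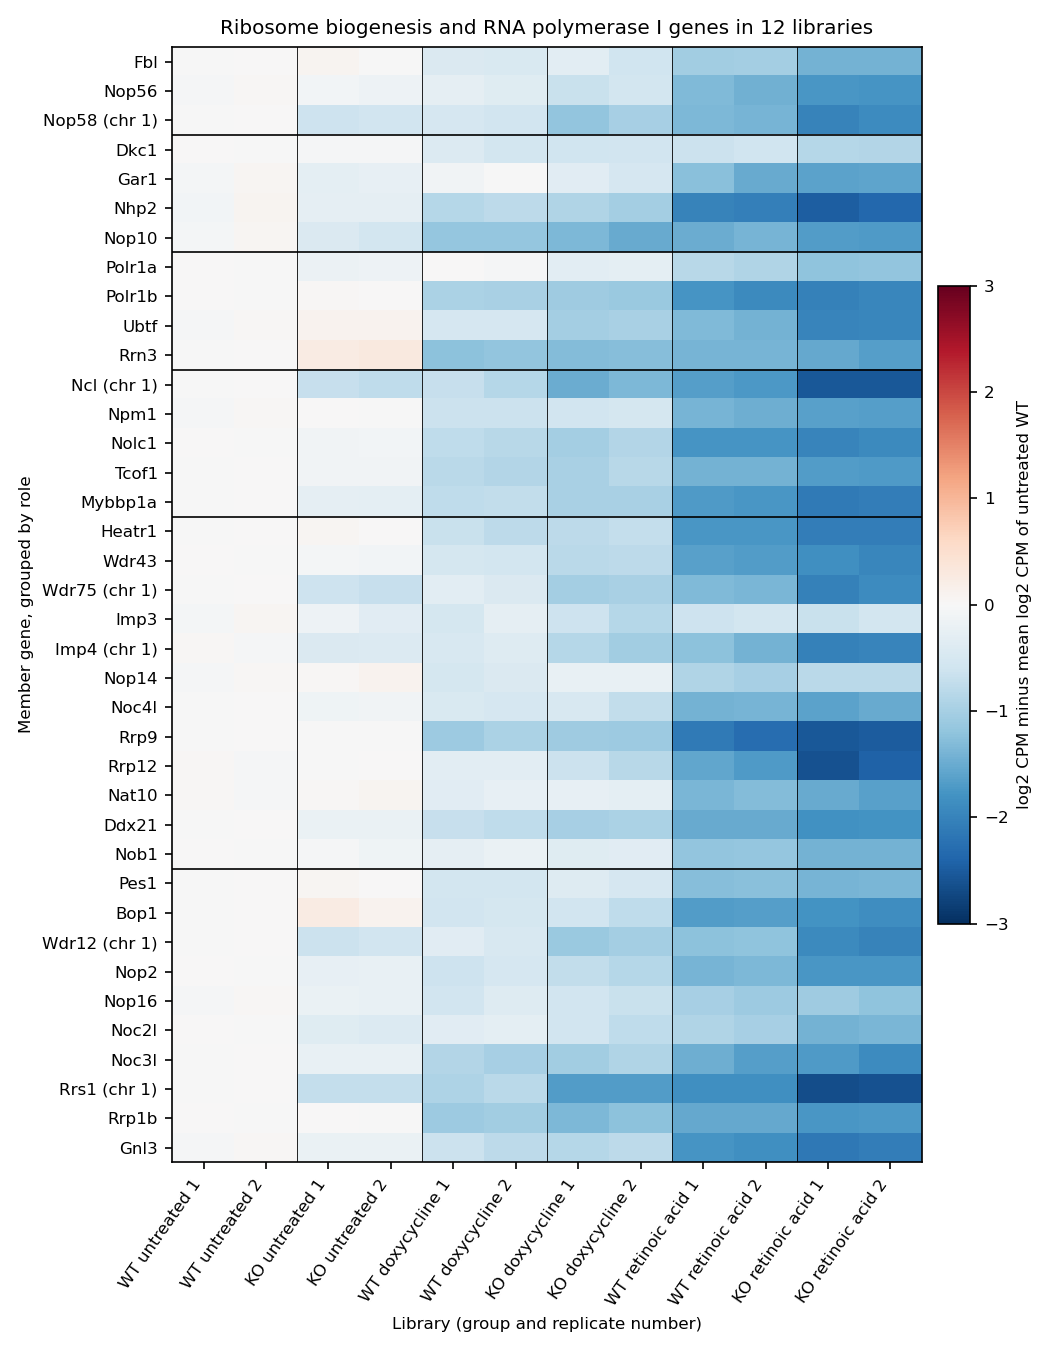
Heat map of the 38 members (vertical axis, grouped by role from box C/D snoRNP genes at the top to large-subunit factors at the bottom, with chromosome 1 members marked) in 12 libraries (horizontal axis); colour is log2 CPM minus the mean log2 CPM of untreated WT. The median over members was -0.55 to -0.57 in the WT doxycycline libraries, -0.82 to -0.84 in KO doxycycline, -1.39 to -1.42 in WT retinoic acid and -1.75 to -1.77 in KO retinoic acid.

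RNA polymerase I and its factors came first in order of action. Polr1a and Polr1b encode the pair of large subunits that form the enzyme's active centre, and they responded unequally to doxycycline. Polr1a was 202 and 199.9 CPM in untreated WT and 202 and 197 CPM with doxycycline, with groups that overlapped (log2 change -0.01 ± 0.047 SE, edgeR adjusted p = 0.84). In KO it went from 178 and 180.1 CPM to 162 and 164 CPM (-0.13 ± 0.047, edgeR adjusted p = 0.016), a call that was lost with plain library totals (-0.07, adjusted p = 0.24), with effective-length offsets (0.00, 0.99), with no filter on low counts (-0.13, 0.073) and without either untreated KO library (-0.14 and -0.12, 0.053 and 0.093) or the first doxycycline KO library (-0.12, 0.075). Polr1b fell in both lines, from 179 and 177 CPM to 91.9 and 90.6 CPM in WT (-0.96 ± 0.053, edgeR adjusted p = 2.2e-15). With retinoic acid Polr1a reached 112 and 108 CPM in WT and 86.7 and 88.0 CPM in KO, and Polr1b 52.3 and 47.2 CPM and 43.6 and 46.0 CPM. Every retinoic acid library of both genes lay below every untreated library of its line.

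Rrn3 (TIF-IA), which carries the polymerase to promoter-bound factors, had the largest fall of all members with doxycycline. It was 232 and 239 CPM in untreated WT and 101 and 104 CPM with doxycycline, a change of -1.20 ± 0.051 (2.30-fold lower, edgeR adjusted p = 4.3e-18). In KO it fell from 278 and 287 CPM to 94.9 and 97.2 CPM, a change of -1.55 ± 0.051 (2.94-fold lower, edgeR adjusted p = 1.1e-20). Retinoic acid left it at 89.8 and 89.1 CPM in WT and 80.9 and 75.4 CPM in KO. Thus the doxycycline and retinoic acid libraries of Rrn3 lay near each other, unlike those of most members. Ubtf (UBF), the HMG-box protein that coats active ribosomal DNA, was 254 and 265 CPM in untreated WT, 182 and 184 CPM with doxycycline and 103 and 97.7 CPM with retinoic acid. In KO it was 278 and 277 CPM, 128 and 132 CPM, and 66.1 and 67.1 CPM. The groups of Ubtf did not overlap, and the KO libraries were the lower ones in both treatments but not in untreated cells.

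The snoRNP proteins serve 2 kinds of RNA modification. Fbl, the methyltransferase of box C/D particles, went from 446 and 449 CPM in untreated WT to 331 and 326 CPM with doxycycline and 215 and 222 CPM with retinoic acid. In KO, Fbl was 474 and 440.3 CPM, then 358 and 298 CPM, then 167 and 168 CPM. The 2 KO doxycycline libraries of Fbl bracket the WT ones. Its partners Nop56 and Nop58 fell by 0.32 and 0.54 on the log2 scale with doxycycline in WT, and by 1.38 and 1.37 with retinoic acid.

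Of the box H/ACA proteins, which serve pseudouridylation, Nhp2 and Nop10 fell strongly with doxycycline in WT, by 0.82 and 1.15 on the log2 scale. Gar1 did not pass the test there: it was 65.1 and 71.5 CPM untreated and 63.5 and 67.2 CPM with doxycycline in WT (-0.06 ± 0.073, edgeR adjusted p = 0.48), and 55.4 and 57.4 CPM against 54.3 and 48.1 CPM in KO (-0.14 ± 0.076, adjusted p = 0.12). With upper-quartile scaling Gar1 and Polr1a were called lower too, so that all 38 members were. That scaling lowered the other genes as well: the median of all genes went to -0.11 in WT and -0.05 in KO. The members' median minus that of all genes was -0.55 in WT and -0.59 in KO with either scaling, as it must be when scaling shifts all genes alike. Retinoic acid took Gar1 to 28.7 and 23.9 CPM in WT, below all untreated and doxycycline libraries. Nhp2 had one of the largest falls with retinoic acid, from 199 and 225 CPM to 52.8 and 51.0 CPM in WT (-2.03 ± 0.061, 4.08-fold lower). Dkc1, the pseudouridine synthase, had one of the smallest, from 301 and 298 CPM to 191 and 196 CPM in WT (-0.63 ± 0.049).

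The nucleolar scaffold and chaperone genes include the most abundant members. Ncl was 3894 and 3994 CPM in untreated WT, 2430.0 and 2179 CPM with doxycycline and 1263 and 1204 CPM with retinoic acid, the last a change of -1.68 ± 0.057 (3.20-fold lower, edgeR adjusted p = 4.5e-20). In KO it was 2444 and 2308 CPM, 1400.0 and 1542 CPM, and 676 and 681 CPM. Each KO group of Ncl lay below the WT group of the same condition. Npm1 was 2716 and 2835 CPM in untreated WT, 1788 and 1770.0 CPM with doxycycline and 1056 and 1005 CPM with retinoic acid. In KO, Npm1 was 2813 and 2772 CPM, 1849 and 1925 CPM, and 904 and 887 CPM. The untreated libraries of Npm1 overlapped between the lines, and the KO libraries lay above WT with doxycycline, where the difference (0.08) did not pass the test, and below WT with retinoic acid (-0.20). Nolc1 (Nopp140, a chaperone of snoRNPs), Tcof1 (treacle, a partner of UBF in ribosomal DNA transcription) and Mybbp1a (a nucleolar protein of pre-rRNA processing) fell by 0.80, 0.84 and 0.75 on the log2 scale with doxycycline in WT. With retinoic acid they fell by 1.77, 1.41 and 1.72.

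All 12 small-subunit factors fell with both treatments in both lines. Rrp9, a protein of the U3 snoRNP that prepares 18S rRNA, had the largest fall of all members with retinoic acid in WT, from 126 and 128 CPM to 29.3 and 25.9 CPM (-2.20 ± 0.064, 4.59-fold lower, edgeR adjusted p = 1.1e-21). Rrp12, needed for the last steps and export of pre-ribosomes, had the largest in KO, from 136 and 137 CPM to 22.4 and 25.5 CPM (-2.51 ± 0.072, 5.71-fold lower, edgeR adjusted p = 9.4e-22). In WT, Rrp12 went from 140.3 and 133 CPM to 46.1 and 41.9 CPM. Heatr1, Wdr43 and Wdr75, which join the nascent transcript early, fell by 1.75, 1.66 and 1.35 on the log2 scale with retinoic acid in WT.

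At the other end of the small-subunit group stood Imp3, also of the U3 particle. It was 59.3 and 64.2 CPM in untreated WT, 43.0 and 51.6 CPM with doxycycline and 40.2 and 42.3 CPM with retinoic acid. In KO it was 55.2 and 48.8 CPM, 40.2 and 34.3 CPM, and 38.6 and 41.8 CPM. Imp3 changed least of all members with retinoic acid, by -0.58 ± 0.088 in WT and -0.37 ± 0.090 in KO (edgeR adjusted p = 6.6e-06 and 0.0011). The KO call was lost with plain library totals (-0.04, adjusted p = 0.65), and deposited TPM put that change at 0.18. Its partner Imp4 fell by 1.32 in WT and 1.57 in KO, so these companions of the same particle moved by different amounts; the difference between genes was not tested. Nop14 and Noc4l, which bind each other, fell by 0.95 and 1.41 with retinoic acid in WT. Nat10, the acetyltransferase of 18S rRNA, Ddx21, a helicase of the polymerase I and snoRNA pathways, and Nob1, the nuclease that trims 18S rRNA, fell by 1.62, 1.60 and 1.33 in KO.

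All 10 large-subunit factors fell with both treatments in both lines. Pes1, Bop1 and Wdr12 form the PeBoW complex, and with doxycycline in WT they changed by -0.56 ± 0.049, -0.55 ± 0.057 and -0.41 ± 0.056. With retinoic acid in WT they changed by -1.26 ± 0.050, -1.66 ± 0.059 and -1.21 ± 0.058. Rrs1, which helps to bring in the 5S particle, went from 181 and 186 CPM in untreated WT to 97.0 and 104 CPM with doxycycline and 51.0 and 51.3 CPM with retinoic acid. Rrp1b, a nucleolar protein of the large-subunit precursor, fell by 1.06 on the log2 scale with doxycycline in WT, more than the other large-subunit factors. Gnl3 (nucleostemin), known from stem cells, went from 272 and 288 CPM to 179 and 161 CPM with doxycycline and 81.7 and 78.8 CPM with retinoic acid in WT. Nop2, the methyltransferase of 28S rRNA whose promoter is shown above, went from 234 and 232 CPM to 151 and 165 CPM and then 89.2 and 91.4 CPM. Nop16, Noc2l and Noc3l fell by 1.04, 0.94 and 1.56 on the log2 scale with retinoic acid in WT.

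**Figure D2:**
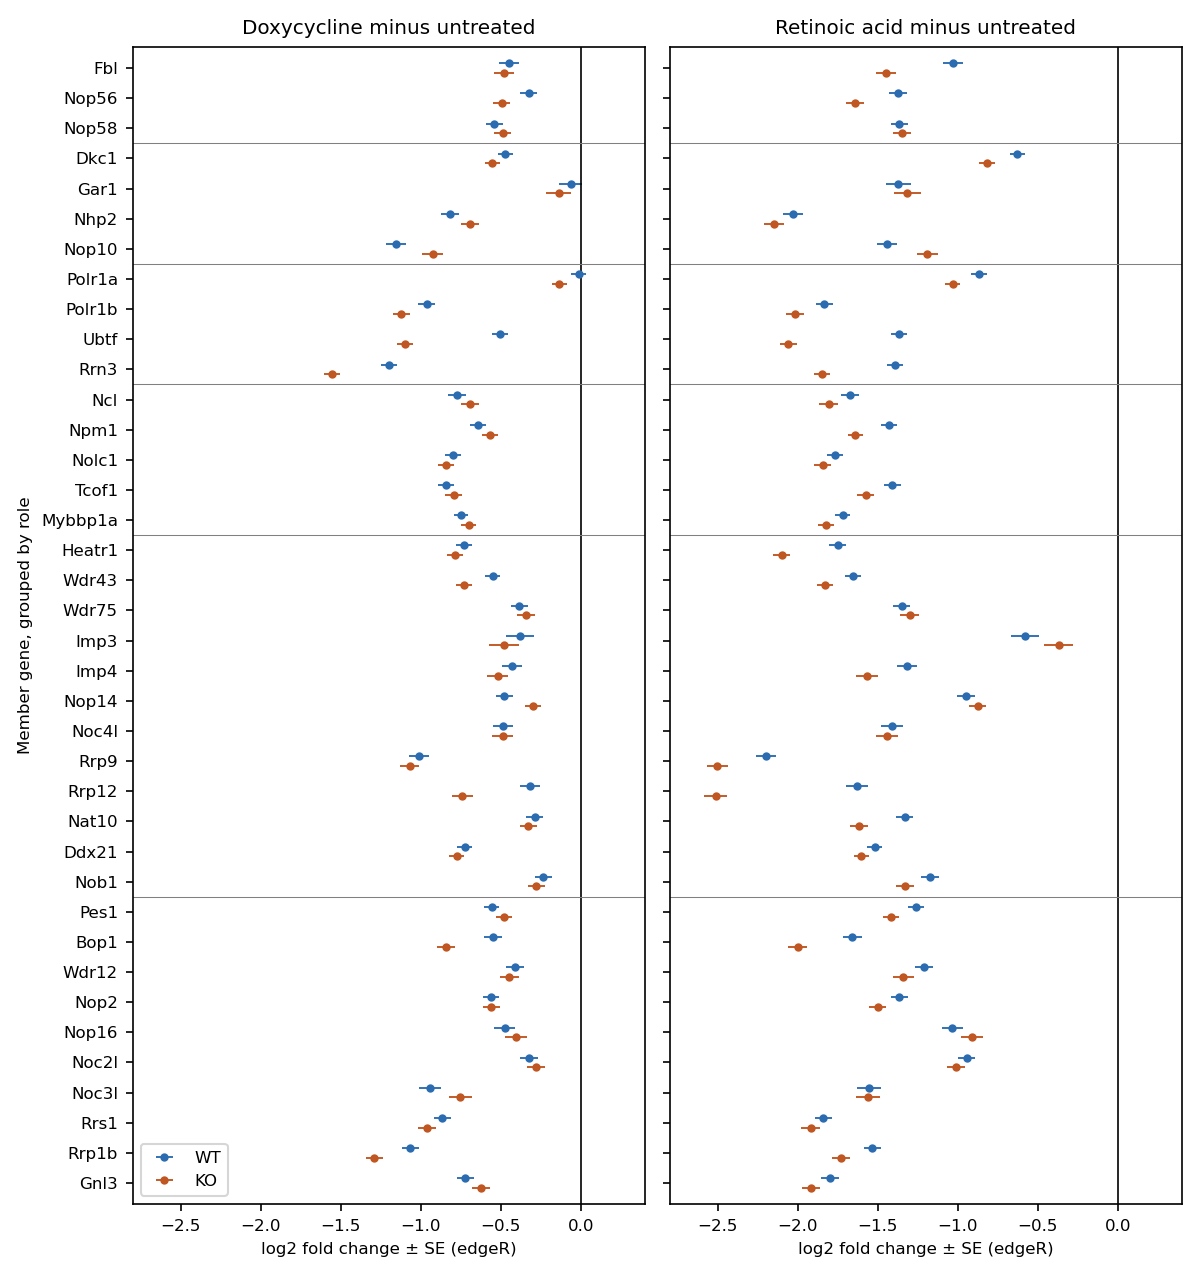
log2 fold change ± SE (horizontal axis) of each member (vertical axis, grouped by role) for doxycycline and for retinoic acid against untreated cells, WT in blue and KO in orange. With retinoic acid every point lies below 0, from -2.20 to -0.58 in WT and from -2.51 to -0.37 in KO; with doxycycline the points of Polr1a and Gar1 lie nearest to 0.

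Set directly against doxycycline, retinoic acid gave lower values for 38 of 38 members in WT (70.6% of all genes called in either direction, 33.2% lower) and 37 in KO (71.2% and 33.2%). The libraries did not overlap for 38 members in WT (84.7% of all genes) and 37 in KO (84.8%). The median of the members was -0.87 in WT and -0.96 in KO. These comparisons cross a difference in time, medium and extraction, and their all-gene median moved from 0.05 and 0.06 to 0.36 and 0.32 with plain library totals. The share of all calls that were higher went from 53.0% to 73.1% in WT and from 53.3% to 69.3% in KO with plain totals. Rrn3, Nop10, Dkc1, Imp3 and Rrp1b differed little in WT, by -0.19, -0.29, -0.16, -0.21 and -0.47. The first 4 turned positive with plain totals (0.11, 0.02, 0.15 and 0.10) and all 5 in deposited TPM (0.20, 0.12, 0.19, 0.21 and 0.10). In KO the change of Imp3 was 0.11 ± 0.093 and did not pass the test.

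The next comparison set KO against WT within a condition. As the number of clones is not given, Phf6 loss cannot be told apart from other differences between the lines. The same holds for the differences of response below. In untreated cells 18 members were called lower and 2 higher in KO, against 30.0% of all genes called in either direction, 14.9% lower and 15.2% higher. With doxycycline 21 were lower and 1 higher, against 37.0% of all genes called in either direction, 19.1% lower and 17.9% higher. With retinoic acid 33 were lower and 1 higher, against 38.8%, 20.0% and 18.8%. These shares over all genes were not matched to the members' levels either. The libraries of the lines did not overlap for 32, 30 and 36 members, against 63.5%, 63.5% and 71.3% of all genes. The medians of the members were -0.12, -0.19 and -0.28 on the log2 scale, and those of all genes tested were within 0.02 of 0. With upper-quartile scaling the share of all doxycycline calls that were higher in KO went from 48.3% to 60.6%, and 19 members were still lower and 3 higher. With doxycycline, 10 of 11 trophectoderm genes, 8 of 12 pluripotency genes and 10 of 18 proliferation genes were lower in KO as well, at summed levels of 1487 to 1500.0 against 2172 to 2488 TPM, 519 to 549.5 against 657.6 to 658.4 TPM, and 2873 to 2901 against 3253 to 3308 TPM. None of these genes was at 0, and their part in the members' values was not tested. The marker lists were not split by chromosome, as the members are below. In untreated cells, dropping the second WT library took the lower calls to 13. Of the 20, 22 and 34 calls, 14, 15 and 22 were kept in every other fit run (21, or 20 for the chromosome 1 members), which changed the scaling, filter, test, block or libraries.

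Chromosome 1 as a whole was lower in KO, and 6 members lie on it: Ncl, Nop58, Wdr12, Rrs1, Imp4 and Wdr75. Among 834 other chromosome 1 genes averaging 1 CPM or more, the median log2 difference was -0.47 in each of the 3 conditions, and 80% of them lay between -0.88 and 0.15 in untreated cells. Genes on the other autosomes had medians of 0.04, 0.02 and 0.01. All 6 members were called lower in every condition, from -0.73 (Ncl) to -0.43 (Imp4) in untreated cells, from -0.81 (Rrs1) to -0.52 (Imp4) with doxycycline, and from -0.86 (Ncl) to -0.59 (Nop58) with retinoic acid. Set against the chromosome's median, Ncl was lower by 0.26, 0.18 and 0.39 and Rrs1 by 0.25, 0.34 and 0.33. Imp4 stood 0.04 above that median in untreated cells, and 0.05 and 0.21 below it in the treated ones. All 6 lay within the middle 80% of chromosome 1 genes in each condition, so their differences in KO were of the size common on that chromosome.

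The 32 members on other chromosomes gave 12 lower and 2 higher calls in untreated cells, 15 and 1 with doxycycline, and 27 and 1 with retinoic acid, with medians of -0.09, -0.14 and -0.24. Genes on the other autosomes were called lower in 13.6%, 19.1% and 19.1%. Nop10 was 127 and 138 CPM in untreated WT and 97.3 and 90.3 CPM in untreated KO, the largest such difference outside chromosome 1 (-0.50 ± 0.061, edgeR adjusted p = 2.6e-07). Noc2l followed, with 259 and 255 CPM against 200.2 and 195 CPM (-0.38 ± 0.054, edgeR adjusted p = 2.6e-06), and it was lower in KO by 0.34 with doxycycline and 0.45 with retinoic acid. Rrn3 rose in untreated KO, with 232 and 239 CPM in WT against 278 and 287 CPM (0.26 ± 0.048, edgeR adjusted p = 9.2e-05). Bop1 was the other higher call (0.17, adjusted p = 0.020), but lost it without either untreated WT library (0.15 and 0.17, adjusted p = 0.15 and 0.097) or the first untreated KO library (0.09, 0.38). Nop14 was the one member called higher with doxycycline, with 96.1 and 102 CPM in WT and 117 and 118 CPM in KO (0.25 ± 0.054, edgeR adjusted p = 4.4e-04). Its call with retinoic acid (0.14, adjusted p = 0.042) was lost without the second WT library (0.10, adjusted p = 0.30), without either KO retinoic acid library (0.14 and 0.15, adjusted p = 0.15 and 0.12) and without each untreated library (0.13 to 0.14, adjusted p = 0.059 to 0.066).

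Lower in KO in all 3 conditions were 14 members, against 5.89% of all genes; 8 of them lie outside chromosome 1, namely Ddx21, Gar1, Mybbp1a, Nhp2, Noc2l, Nop10, Nop2 and Polr1a. Mybbp1a was 811 and 824 CPM in untreated WT and 679 and 672 CPM in untreated KO, then 482 and 493 against 414 and 417 CPM, then 250.3 and 246 against 188 and 194 CPM. Its groups did not overlap in any condition, with differences of -0.28, -0.23 and -0.38. Ddx21 differed by -0.20, -0.25 and -0.28, Nop2 by -0.24, -0.24 and -0.38, and Polr1a by -0.17, -0.29 and -0.33. Some of these calls were weak. That of Nhp2 with doxycycline (-0.15, adjusted p = 0.050) was lost in 11 fits, among them those without the second doxycycline library of either line (-0.12 and -0.09, 0.22 and 0.30). Nop10 was lost with doxycycline without the second KO library (-0.18, adjusted p = 0.066), and with retinoic acid without the second WT library (-0.19, 0.096) and in DESeq2 (-0.22, 0.058). Gar1 was lost in untreated cells without the second WT library (-0.22, adjusted p = 0.097) and with effective-length offsets (-0.19, 0.30). Offsets also ended the doxycycline calls of Gar1 (-0.33, adjusted p = 0.059) and Polr1a (-0.17, 0.15). With retinoic acid the call of Gar1 (-0.22, adjusted p = 0.048) was lost without the first WT library (-0.08, adjusted p = 0.64), among other fits. Pes1 and Noc4l were called in no condition.

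With retinoic acid the lower calls in KO reached every role: 3 of 3 box C/D and 4 of 4 box H/ACA proteins, 4 of 4 polymerase I genes, 5 of 5 scaffold genes, 9 of 12 small-subunit and 8 of 10 large-subunit factors, where 20.0% of all genes were lower. Of these, Polr1b was lost without the first WT library (-0.08, adjusted p = 0.48), either KO library (-0.11 and -0.19, 0.32 and 0.058) and in DESeq2 (-0.13, 0.22). Calls of Nolc1, Bop1, Rrn3, Noc3l, Nop10, Nat10, Gar1, Rrp9 and Rrp1b were each lost in at least 1 fit that left out a library. The 2 largest differences outside chromosome 1 were those of Rrp12 (-0.88 ± 0.076, edgeR adjusted p = 3.6e-10) and Ubtf (-0.59 ± 0.052, edgeR adjusted p = 3.3e-10). Fbl and Heatr1 did not differ beyond the test in untreated cells (0.03 in each) but were lower in KO with retinoic acid, by 0.38 and 0.32. Cell identity markers differed between the lines in the same libraries. Of 12 pluripotency genes, 10 were lower in KO with retinoic acid, at a summed 3790 to 3802 TPM against 5056 to 5561 TPM in WT. All 10 primitive endoderm genes were higher in KO, at 3620.0 to 3827 TPM against 1905 to 2043 TPM, and no gene of either list was at 0. Of the 18 proliferation genes, 9 were lower and 2 higher in KO. The part of these marker differences in the members' values was not tested.

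**Figure D3:**
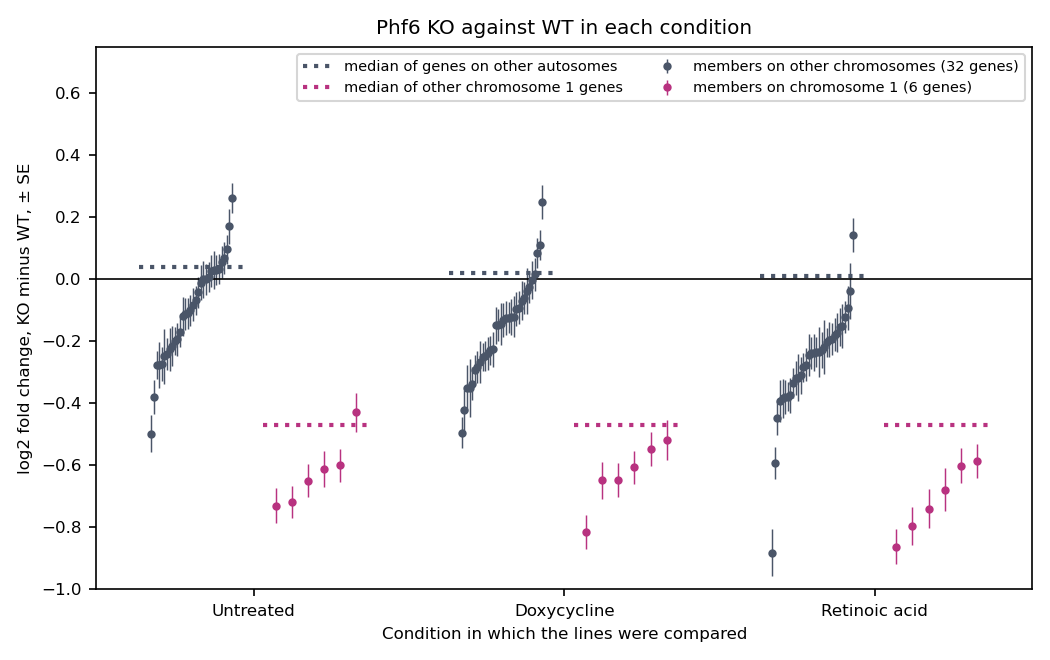
log2 fold change of KO against WT ± SE (vertical axis) for each member in the 3 conditions (horizontal axis), with the 6 chromosome 1 members in pink and the other 32 in grey; dotted lines are the medians of other chromosome 1 genes (-0.47 in each condition) and of genes on other autosomes (0.04, 0.02 and 0.01). The grey points move down from a median of -0.09 in untreated cells to -0.24 with retinoic acid, while the pink points lie below -0.4 in all 3 conditions.

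Whether the lines responded differently to a treatment was tested as the difference of the 2 changes, KO minus WT; both such tests use the same untreated libraries. For doxycycline 5 members (13.2%) fell further in KO and none less, at the edgeR threshold. Of all genes 19.2% were called in either direction, 10.0% lower and 9.11% higher. The doxycycline count is near that lower share, and so no result about the set. For retinoic acid 10 (26.3%) fell further in KO and none less, against 17.6% in either direction, 10.3% lower and 7.31% higher. At an unadjusted p under 0.05, Nop10 and Nop14 fell less in KO with doxycycline and Nop10 with retinoic acid; DESeq2 called 0 that way, while upper-quartile scaling called 2 with doxycycline and 1 with retinoic acid. No chromosome 1 member was among the 15 results, and 4 members (Ubtf, Rrn3, Rrp12 and Bop1) were in both sets. Pou5f1 itself fell further in KO with doxycycline, as given above, and its part in these differences was not tested. The count for doxycycline went to 3 without the first untreated KO library, and that for retinoic acid to 6 without the second KO retinoic acid library.

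Ubtf had the largest difference with doxycycline. It went from 254 and 265 CPM to 182 and 184 CPM in WT, and from 278 and 277 CPM to 128 and 132 CPM in KO, so the change was -0.50 in WT and -1.10 in KO (difference -0.59 ± 0.068, edgeR adjusted p = 2.1e-07). With retinoic acid the difference was -0.69 ± 0.070 (edgeR adjusted p = 2.2e-08). Rrp12 had the largest difference with retinoic acid, where its change was -1.63 in WT and -2.51 in KO (difference -0.88 ± 0.098, edgeR adjusted p = 1.4e-07). Its doxycycline libraries read 110.0 and 109 CPM in WT and 87.2 and 76.3 CPM in KO (difference -0.42 ± 0.088, edgeR adjusted p = 9.1e-04). For Rrn3 the differences were -0.36 ± 0.071 with doxycycline and -0.46 ± 0.071 with retinoic acid (edgeR adjusted p = 5.5e-04 and 2.4e-05). Here the KO cells started higher and ended at or below the WT cells: the doxycycline level itself differed by -0.09 (adjusted p = 0.18), and the retinoic acid level by -0.19 (adjusted p = 0.0040, lost without the second KO library, -0.15 and 0.10). Bop1 likewise began higher in KO, at 234 and 213 CPM against 197 and 199.6 CPM, and its differences were -0.29 ± 0.080 and -0.34 ± 0.084 (edgeR adjusted p = 0.0096 and 0.0044). The doxycycline difference of Bop1 was lost without the first untreated KO library (-0.22, adjusted p = 0.089) or the second doxycycline KO library (-0.20, adjusted p = 0.064).

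**Figure D4:**
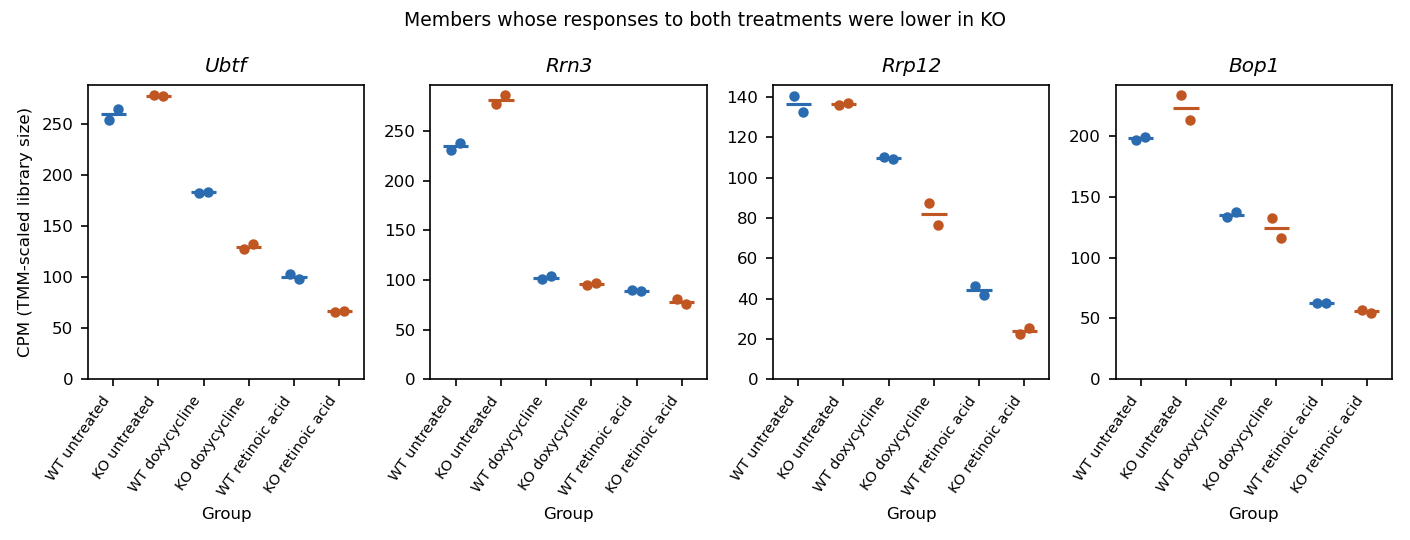
CPM in each library (vertical axis, from 0) of Ubtf, Rrn3, Rrp12 and Bop1 in the 6 groups (horizontal axis), WT in blue and KO in orange; points are libraries and bars are means of 2. KO points of Rrn3 and Bop1 lie above WT in untreated cells, while KO points of Ubtf and Rrp12 lie below WT in both treatments (Ubtf 128 and 132 against 182 and 184 CPM with doxycycline).

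Other genes of the pathway were taken from a list of 127 further ribosome biogenesis genes, of which 126 were found and tested. With doxycycline 100 fell and 6 rose in WT, and 102 fell and 4 rose in KO; with retinoic acid 124 fell and 1 rose in each line. Of all genes, 31.3% and 31.2% fell with doxycycline and 32.9% and 34.6% with retinoic acid. The medians were -0.39, -0.41, -1.03 and -1.07. Mdn1, the large AAA ATPase that strips factors from large-subunit precursors, had the largest fall with retinoic acid in both lines, from 474 and 427 CPM to 118 and 126 CPM in WT (-1.88 ± 0.055) and from 432 and 445 CPM to 97.0 and 90.8 CPM in KO (-2.22 ± 0.057). The other leading falls with retinoic acid were Ppan (-1.84) and Nle1 (-1.70) in WT and Pwp2 (-2.15) and Tsr1 (-2.08) in KO. With doxycycline they were Rsl24d1 (-1.02), Surf6 (-1.01) and Utp14a (-0.93) in WT, and Senp3 (-1.34), Nol6 (-1.08) and Mdn1 (-1.08) in KO. Pih1d1 and Rrp7a rose with doxycycline in WT (0.50 and 0.44) and in KO (0.43 and 0.25), and Exosc10 by less (0.15 and 0.21). Exosc6, the single call in the other direction with retinoic acid and 1 of the 6 with doxycycline in WT, is listed at 0 in every library of both untreated groups and of KO with doxycycline. It is listed at 1.98 to 6.12 CPM in the other 6 libraries, and is given no fold.

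KO against WT, the same list gave 34 lower and 6 higher calls in untreated cells, 55 and 1 with doxycycline, and 63 and 2 with retinoic acid, with medians of -0.07, -0.12 and -0.17. Lower calls made up 27.0%, 43.7% and 50% of the list, against 14.9%, 19.1% and 20.0% of all genes, and calls in either direction in untreated cells 31.7% against 30.0%. Taf1a, a subunit of the selectivity factor SL1 that recruits polymerase I, was lowest in untreated KO: 35.9 and 31.7 CPM in WT against 19.2 and 17.4 CPM, a difference of -0.89 ± 0.098 (edgeR adjusted p = 4.0e-08). It stayed lower with doxycycline (-0.96) and retinoic acid (-0.85), and lies on chromosome 1, as does Rrp15 (-0.77 in untreated cells and -1.02 with retinoic acid). Las1l, a nuclease subunit for the internal spacer, differed by -0.77 ± 0.049 in untreated cells and -0.83 ± 0.052 with retinoic acid and lies on chromosome X. Znhit2 was 19.1 and 20.1 CPM in WT against 10.0 and 8.72 CPM in KO with doxycycline (-1.07 ± 0.12). The 55 lower calls with doxycycline include Exosc6, listed at 0 in KO and at a mean of 3.64 CPM in WT, which is given no fold. Higher in KO were Znrd1, a small polymerase I subunit (0.39), Fcf1 (0.23) and Ruvbl2 (0.18) in untreated cells, Ddx52 (0.16) with doxycycline, and Ddx54 (0.18) and Nsa2 (0.17) with retinoic acid. In the differences of response, 11 fell further and 4 less in KO with doxycycline, and 26 and 3 with retinoic acid. With doxycycline this is 8.73% further and 3.17% less, against 10.0% and 9.11% of all genes, and so no result about the list; with retinoic acid it is 20.6% and 2.38%, against 10.3% and 7.31%. Rcl1 led both among genes with reads in all groups (-0.45 ± 0.076 and -0.62 ± 0.078, edgeR adjusted p = 6.8e-05 and 8.4e-07), with Senp3 (-0.45) and Wdr46 (-0.37) after doxycycline and Znrd1 (-0.59) and Utp20 (-0.55) after retinoic acid. On the other side stood Rsl24d1 (0.36), Polr1d (0.28) and Ddx52 (0.23) with doxycycline, and Exosc4 (0.37), Utp3 (0.33) and Polr1d (0.24) with retinoic acid.

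Genes of the Myc network, known to act on this pathway through E-boxes, were read in the same fit. Myc did not follow the members in WT with doxycycline: it rose from 60.3 and 58.8 CPM to 93.6 and 104 CPM (0.73 ± 0.066, edgeR adjusted p = 1.0e-10), while 36 members fell. In KO it fell from 74.1 and 76.5 CPM to 59.1 and 57.0 CPM (-0.38 ± 0.067, edgeR adjusted p = 2.0e-05). The 2 changes differed by -1.11 ± 0.094 (edgeR adjusted p = 1.2e-09). With retinoic acid Myc fell to 12.6 and 10.3 CPM in WT (-2.37) and to 5.34 and 4.86 CPM in KO (-3.88), again further in KO (difference -1.50 ± 0.14, edgeR adjusted p = 3.9e-09). In untreated cells Myc was higher in KO by 0.34, and in treated cells lower by 0.77 and 1.17.

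Mycn, the paralog that embryonic stem cells express highly, fell with doxycycline by 0.44 in WT and 0.91 in KO, and with retinoic acid by 1.49 and 1.16. The paralog Mycl, at a mean of 7.84 CPM in untreated WT, rose with retinoic acid by 1.53 in WT and 1.95 in KO. With doxycycline Mycl fell by 0.88 in WT and did not pass the test in KO (0.01). Mycl was higher in KO than in WT with doxycycline (0.81) and retinoic acid (0.35), and not called in untreated cells (-0.07). Max, the shared partner, fell by 0.33 and 0.50 with doxycycline and by 0.62 and 0.68 with retinoic acid. Mxd4, a member of the Mxd family that competes with Myc for Max and represses, moved the other way. It was 7.94 and 9.34 CPM in untreated WT, 41.2 and 41.0 CPM with doxycycline and 56.8 and 60.0 CPM with retinoic acid. In KO it was 15.8 and 18.4 CPM, 67.9 and 68.5 CPM, and 112 and 110.1 CPM. Every KO group of Mxd4 lay above the WT group of the same condition, by 0.99, 0.73 and 0.93 on the log2 scale (edgeR adjusted p = 2.5e-08, 7.2e-10 and 6.6e-13). Mxd1 rose with both treatments in both lines (0.42 to 0.60), Mxi1 fell with doxycycline (-0.53 and -0.83) and rose with retinoic acid (1.08 and 1.14), and Mxd3 fell and rose likewise (-1.05 and -1.22, then 0.48 and 0.39). Mnt rose with doxycycline (0.30 and 0.38) and fell with retinoic acid (-0.99 and -0.77). No relation between these genes and the members was tested.

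**Figure D5:**
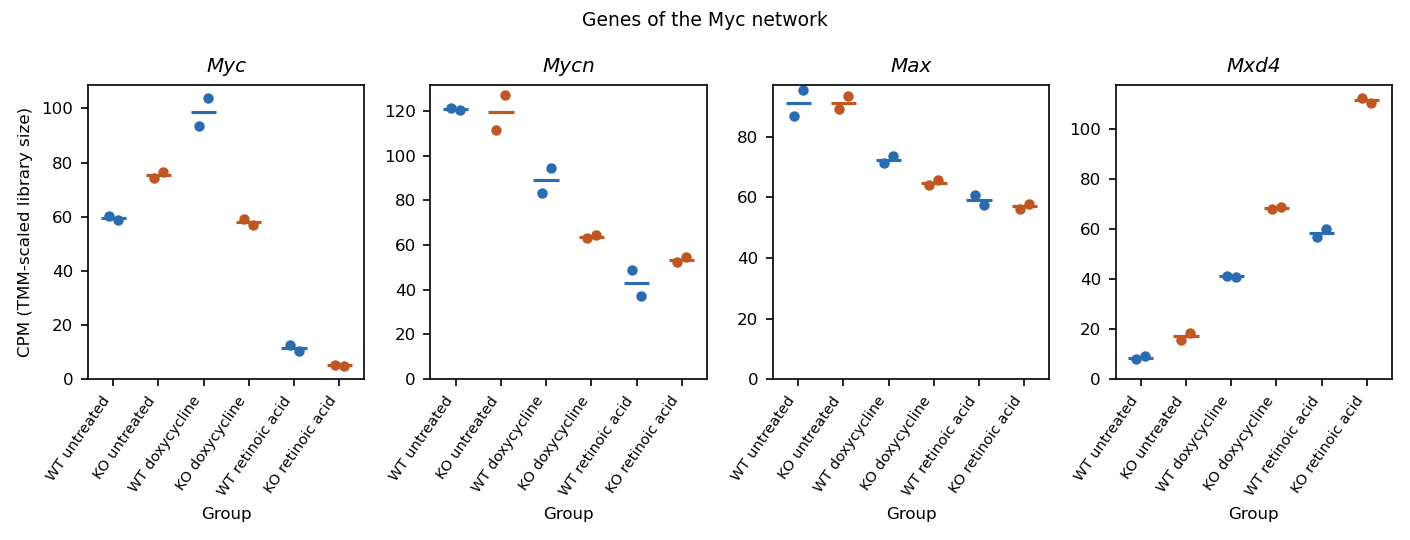
CPM in each library (vertical axis, from 0) of Myc, Mycn, Max and Mxd4 in the 6 groups (horizontal axis), WT in blue and KO in orange; points are libraries and bars are means of 2. Myc was highest in WT with doxycycline (93.6 and 104 CPM), where most ribosome biogenesis genes were below untreated WT, and Mxd4 was highest in KO with retinoic acid (112 and 110.1 CPM).

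Some member counts carry a known uncertainty. The strand setting of the counting is not given in the sources used here, and 15 members overlap a gene on the other strand. The neighbour reached the largest share of the member's own count for Gnl3 and Pbrm1 (0.739), Bop1 and Mroh1 (0.710) and Nop56 and Idh3b (0.502), so these values could hold reads of the neighbour. Fbl, Nop56, Npm1, Imp4 and Noc2l had counts that were not whole in all 12 libraries, the sign that reads shared with similar sequences were divided by a model. Within 6 members lie snoRNA genes (5 in Nop56, 4 in Nop58, 3 each in Ncl, Wdr43 and Gnl3, and 1 in Dkc1), and their own RNAs were not analysed here.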

How the data were processed

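RNA from 12 ZHBTc4 libraries was sequenced. Reads were handled with STAR 2.5.3a, RSEM 1.3.0 and DESeq2 1.18.1 on mm10, per the submitters' processing notes. For the gene models' release and the strand option, the answer is: not given in the sources used here. The authors deposited, for each library and gene, an expected count (the RSEM estimate, not always whole), a TPM value and an effective length in bases, per the file headers. Identifiers matched GENCODE M21 for 53274 of 53379 genes.

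Expected counts were rounded and tested with edgeR 4.0.16 (R 4.3.3): TMM scaling (factors 0.9011 to 1.163), filterByExpr with a minimum count of 10, robust quasi-likelihood fit over all 6 groups with no covariate, 17884 genes, 11 contrasts, 6 residual degrees of freedom and Benjamini-Hochberg adjustment at 0.05. CPM uses the scaled totals. Levels between genes were compared in deposited TPM. Not whole were 9.55% to 11.6% of genes per library. A count of 3 corresponds to 0.13 to 0.20 CPM. The procedure was tested on simulated data.

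The text names all 38 members, Phf6 and Pou5f1 as checks, Myc network genes, and of the wider pathway list the 3 called genes with the largest rise and the 3 with the largest fall in each contrast described for that list, which leaves out retinoic acid against doxycycline. The members and lists were chosen with earlier results of these data known. Alternatives covered scaling, the filter, DESeq2 1.42.0 tests, offsets from effective length, TPM, a replicate block, groups used, chromosome 1 and each library left out; scaling by library totals was added after seeing the data. Riok2 of the pathway list was not found under that symbol.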

Additional observations from a re-analysis of the deposited data

Results flagged for a closer look

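These results stand out because the change with treatment differed between the lines, by the edgeR test of the difference itself (KO minus WT, log2 scale). With doxycycline they were Ubtf (-0.59), Rrp12 (-0.42), Rrn3 (-0.36), Bop1 (-0.29) and Rrp1b (-0.23). With retinoic acid they were Rrp12 (-0.88), Ubtf (-0.69), Rrn3 (-0.46), Fbl (-0.41), Heatr1 (-0.35), Bop1 (-0.34), Rrp9 (-0.31), Nat10 (-0.29), Nop56 (-0.27) and Npm1 (-0.21). Both sets use the same untreated libraries. In each of the 21 other fits, 3 of the 5 and 5 of the 10 were kept. With doxycycline these were Ubtf, Rrp12 and Rrn3, and with retinoic acid Rrp12, Ubtf, Rrn3, Fbl and Bop1. The doxycycline results of Bop1 and Rrp1b were lost in fits that left out a library. So were the retinoic acid results of Rrp9, Npm1, Nop56 and Nat10. DESeq2 also lost Rrp1b (-0.21, adjusted p = 0.17) and Rrp9 (-0.27, 0.17). Heatr1 was lost with effective-length offsets (-0.28, edgeR adjusted p = 0.055).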

How the results depend on the processing

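Members called lower with a treatment kept their direction in all fits of expected counts except Polr1a in KO with doxycycline, 0.00 with effective-length offsets; the cause was not tested here or below. Members called higher in KO numbered 1 in untreated cells (effective-length offsets, DESeq2); 3 (upper-quartile factors and library totals) and 2 (effective-length offsets) with doxycycline; and 0 with retinoic acid (no filter, effective-length offsets, DESeq2, and without chromosome 1 genes, which leaves 32 members). Retinoic acid against doxycycline had 1 higher call in each line with library totals. In the difference of responses to doxycycline, 2 (upper-quartile factors) and 1 (library totals) were higher and 3 lower (effective-length offsets); for retinoic acid 1 was higher (DESeq2 size factors, upper-quartile factors, only the groups compared). With library totals, retinoic acid against doxycycline in WT turned to 0.11 for Rrn3, 0.02 for Nop10, 0.15 for Dkc1 and 0.10 for Imp3. Deposited TPM, a value with no test, turned Rrp1b in KO against WT with retinoic acid (0.00), Polr1a with doxycycline in KO (0.12) and Imp3 with retinoic acid in KO (0.18). It also turned retinoic acid against doxycycline for Rrn3 (0.20), Nop10 (0.12), Dkc1 (0.19), Imp3 (0.21) and Rrp1b (0.10) in WT, and Rrn3 (0.09), Nop10 (0.15), Dkc1 (0.04) and Rrp1b (0.36) in KO.

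Leaving out 1 library at a time, where a lone library is assumed to vary like the other groups, gave 13 to 22, 19 to 23 and 27 to 35 lower calls in KO against WT (untreated, doxycycline, retinoic acid), and 1 to 2, 1 to 2 and 0 to 1 higher calls. The differences of response ranged over 3 to 5 lower calls for doxycycline and 6 to 13 for retinoic acid, with 0 to 1 higher in each. The lowest count of a member in a library was 417, and whether depth limited calls near the threshold was not tested.

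Replicate numbers are shared between groups, but the labels do not say that they pair the samples, and same-numbered libraries had correlations of -0.301 to 0.179 in their deviations. With the replicate block, 17, 20 and 32 members were lower in KO, 414 single results kept their call and 4 lost it.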
